A study of Camellia sinensis with 9 samples.

Results

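Flower and root of the tea plant, Camellia sinensis, were compared with each other in 6 of the 9 libraries of the series. The libraries were chosen by the tissue in their titles: flower 1, 2 and 45 on one side and root 13, 23 and 33 on the other. The 3 leaf libraries (leaf 1, leaf 41 and an unnumbered one whose column number no title carries) are given only as values beside them. Per the labels, the plants of both organs received no treatment. Cultivar, age and flowering stage are not stated there, nor is it stated whether replicates came from separate plants. The spread behind each p-value is thus that between these 6 libraries and may be technical. RNA was total RNA with ribosomal RNA removed and no selection for polyadenylated RNA named, so unspliced and non-coding RNA can contribute.

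A tea flower brings together sepals, petals, many stamens with pollen, and a pistil, so several reproductive cell types are found there that no vegetative organ has. The root takes up water and minerals, carries the vascular and absorbing tissues below ground, and in tea is the main place where theanine is made. The table reports assembled transcripts, grouped into loci, in FPKM, a fragment number corrected for transcript length and for the size of the library. The identifiers are paired with no gene name, and 0 of them occurred in the RefSeq gene table, so neither gene families nor the organ labels could be checked against known markers. Loci were instead sorted by how their transcripts lie against the reference annotation. Annotated loci hold a transcript that matches a reference model, intergenic loci lie between reference genes, and antisense loci hold a transcript on the strand opposite a reference gene and no match to a reference model. Positions count along scaffolds whose names are not in the table used here.

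Over the loci tested, the correlation of log2(FPKM + 1) between libraries (Pearson's r) was 0.91 to 0.96 in root, 0.87 to 0.95 in flower and 0.38 to 0.46 from an organ to the other; these are correlations across loci, which are not independent replicates. Flower 2 stood apart within flower, at 0.87 with flower 1 and 0.88 with flower 45, where those reached 0.95 with each other. Summed FPKM was 865021 to 1087874 in root and 913083 to 1250929 in flower. Read from the steps between low values, 1 FPKM stood for 14.0 to 17.9 fragments in these libraries at a length of 1000 nt. At 400 nt it stood for 3.43 to 4.60 fragments, so short loci are the least precise.

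Flower and root differed at a large part of the loci tested. The 31043 loci that reached 1 FPKM in 3 or more of the 6 libraries were tested with limma on log2(FPKM + 1). A locus was called at an adjusted p under 0.05 and a difference of at least 1, which is 2-fold on that scale and understates the change of low loci. Calls were made at 16055 loci (51.7%), of which 7882 (25.4%) were higher in flower and 8173 (26.3%) higher in root. With a library left out the calls were 14368 to 16697, so a majority was not reached each time. The 3 flower and the 3 root libraries did not overlap at 20519 loci (66.1%). In a bulk sample, fewer cells of a type and less RNA per cell cannot be told apart.

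Over all calls the directions were close to even, and the large differences lay on the side of flower. Calls between 2-fold and 4-fold leaned to root, since flower had the larger count from 4-fold on. At 4-fold and over, 4450 loci were higher in flower and 3901 in root. At 8-fold the counts were 2359 (7.6%) and 1710 (5.51%), at 16-fold 1336 and 766, at 32-fold 790 and 362, at 64-fold 455 and 187, and at 256-fold 137 and 41. The upper tail of the difference was correspondingly longer than the lower one, with a 95th percentile of 3.72 and a 5th percentile of -3.12 on the log2 scale. The quartiles lay close to even at -1.19 and 1.16, and the median was -0.07. Leaving out each library in turn kept the 8-fold counts at 2193 to 2539 higher and 1640 to 1856 lower in flower.

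**Figure D1:**
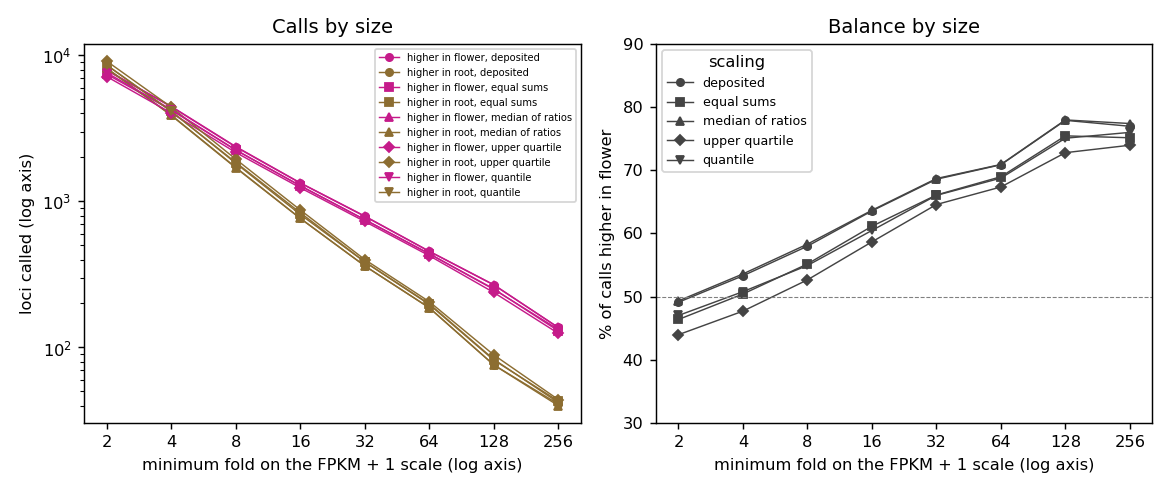
Left: number of loci called (log axis) against the minimum fold on the FPKM + 1 scale (log axis), with flower in pink, root in brown and a marker for each of 5 scalings of the libraries. Right: the percentage of those calls that were higher in flower, with the dashed line at an even split. The lines start near the even split at 2-fold and rise to 137 flower against 41 root calls at 256-fold with the deposited scaling.

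The balance over all calls followed the scaling, and from 8-fold on it stayed on the side of flower. FPKM can be scaled between libraries in several ways, and 4 were set beside the deposited values. The median-of-ratios divisors were 0.979 to 1.006, so that scaling nearly repeats the deposited values. Scaling to equal sums gave 7427 loci higher in flower and 8592 lower. With upper-quartile scaling the counts were 7155 and 9123, with quantile normalization 7595 and 8564, and with median-of-ratios scaling 7916 and 8138. The median difference moved with them, to -0.16, -0.23, -0.12 and -0.06 in that order. Counted relative to its own median, which by construction brings the sides close together, each scaling gave from 7766 higher with 8026 lower (upper quartile) to 8107 higher with 7894 lower (median of ratios). At 4-fold, upper-quartile scaling turned the balance towards root, with 4030 loci higher and 4421 lower in flower. From 8-fold on, flower had the larger count in each of the 5 scalings: 2163 against 1946 at 8-fold with upper-quartile scaling, the narrowest, and 125 against 44 at 256-fold. Under all 5 scalings, 7132 loci were called higher in flower and 7980 lower. No locus (0) was called in opposite directions by any 2 of them. A call in both directions would need a shift far larger than the scalings made, so this count says nothing of their agreement.

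The pseudocount set how strongly the tail leaned. With 0.1 in place of 1, which lets low loci show large ratios, 4197 loci were higher and 3951 lower in flower at 8-fold, and 506 and 176 at 256-fold. With 5 the 8-fold counts were 1133 and 673. Loci that averaged 20 to 100 FPKM over the 6 libraries carried much of the excess, with 987 higher and 600 lower at 8-fold. Those at 2 to 5 FPKM gave 99 and 90.

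Annotated loci carried most of the lean towards flower. Of 18373 tested, 5023 were higher and 4508 lower in flower, and at 8-fold the counts were 1520 and 922. Intergenic loci leaned the other way at 2-fold, with 2577 higher and 3357 lower of 11556, and came out near even at 8-fold with 749 and 709. Among them, the 4219 loci for which the table gives no strand were 916 higher and 1310 lower. Loci without a strand are mostly unspliced, since an assembler reads the strand from splice sites. Of the 628 antisense loci, 164 were higher and 177 lower. By span, loci under 400 nt gave 472 higher and 661 lower calls, and those of 10000 nt and over gave 1575 and 1371. Class, span and level go together here, and their separate parts were not tested. The counts by class, span and level used the deposited scaling alone, and the balance at 2-fold followed the scaling.

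Strong calls took a large part of each organ's RNA. Loci at least 8-fold higher in flower held 44.6% of summed FPKM in flower 1, 42.8% in flower 2 and 38.1% in flower 45, and 0.629% to 0.968% in the root libraries. Loci at least 8-fold higher in root held 33.8% in root 13, 37.1% in root 23 and 33.5% in root 33, and 1.19% to 1.58% in the flower libraries. These loci were chosen by the same values, so the shares describe how concentrated the difference is. In leaf 1 and the unnumbered leaf library, the flower set held 14.6% and 16.6% and the root set 4.84% and 4.97%. In leaf 41 the sets held 13.2% and 12.2%.

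Loci on in one of these organs and off in the other were a small part of all expressed loci. A locus was taken as on in an organ if it reached 1 FPKM in each of the 3 libraries and as off if it stayed below 0.1 in each. At 1000 nt, 0.1 FPKM is 1.40 to 1.79 fragments, so off means at most 1 fragment there. By this rule 21773 loci were on in flower, 23337 in root and 16531 in both. Of those on in flower, 1126 (5.17%) were off in root, and of those on in root, 911 (3.9%) were off in flower. Apart from these and the 16531 on in both, 4116 loci were on in flower and neither on nor off in root, and 5895 the other way round. An exact 0 was listed in all 3 root libraries at 730 of the flower-only loci and in all 3 flower libraries at 691 of the root-only ones. Without flower 2 the flower-only count rose to 2069, where leaving out any other library gave 1245 to 1464; leaving a library out can only loosen this rule.

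Flower-only loci reached higher levels than root-only loci. Their median level in flower was 6.60 FPKM, and 56 of the 1126 averaged at least 100 FPKM. Root-only loci had a median of 4.13 FPKM in root, and 11 of the 911 averaged at least 100. Levels were higher in flower over all loci on there as well, with a median of 11.05 FPKM against 8.62 in root and 1805 of 21773 loci against 1591 of 23337 at 100 FPKM or more. All flower-only loci together made up 2.72% of summed FPKM in flower 1, 3.10% in flower 2 and 1.87% in flower 45. Root-only loci held 1.11% in root 13, 0.894% in root 23 and 1.02% in root 33. The flower libraries were also less alike at their own loci. The highest flower library exceeded the lowest by a median of 3.10 times at flower-only loci and by 1.80 times over all loci on in flower. For root those medians were 2.03 and 1.55. Flower 45 was the highest of its organ at 104 flower-only loci, against 552 for flower 1 and 470 for flower 2.

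The intergenic MSTRG.15498 (positions 399367 to 404045, plus strand, 2 transcripts) was the highest flower-only locus spanning at least 400 nt. It stood at 1112 FPKM in flower 1, 553.4 in flower 2 and 467.3 in flower 45, and was listed at 0 in root 13, 23 and 33. Leaf 1 held 0.890 FPKM and the other leaf libraries were at 0. MSTRG.45398 (reference transcript CSA009499.1, positions 62347 to 73456, plus strand) followed at 736.3, 1064 and 248.0 FPKM in flower 1, 2 and 45. It was at 0.0649 FPKM in root 13 and at 0 in root 23 and 33, below every flower library as the rule for these loci requires. Leaf lay between root and flower, at 7.59, 7.11 and 2.39 FPKM in leaf 1, the unnumbered library and leaf 41.

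On the root side, the intergenic MSTRG.30924 (positions 134294 to 210130, minus strand, 3 transcripts) stood at 137.7 FPKM in root 13, 681.8 in root 23 and 515.9 in root 33. In flower it was at most 2.79e-05 FPKM in every library, and it was at 0 in leaf 1 and the unnumbered leaf library. Leaf 41 held 21.6 FPKM, alone among the leaf libraries. MSTRG.10591, also intergenic (positions 349670 to 351196, minus strand, 1 transcript), stood at 192.1, 275.3 and 100.5 FPKM in root 13, 23 and 33. It was listed at 0 in all 3 flower and all 3 leaf libraries.

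**Figure D2:**
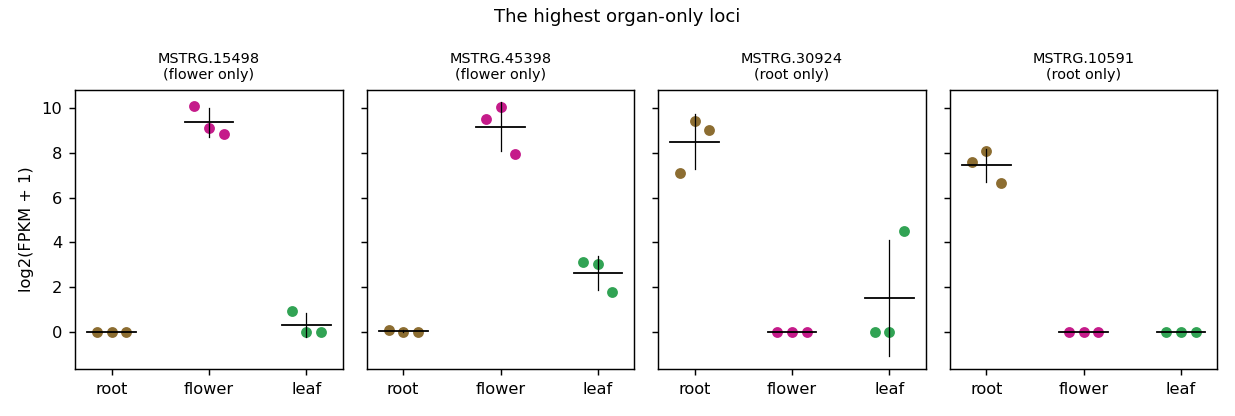
Level of the highest flower-only and root-only loci, as log2(FPKM + 1), with a point for each of the 3 libraries of root, flower and leaf, a bar at the mean and a line of 1 SD on that scale. By the rule that chose them, root and flower cannot overlap at any of the 4 loci, and leaf 41 is the raised leaf point at MSTRG.30924.

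Organ-only loci were mostly outside the annotation, more so in root. Intergenic loci made up 59.3% of the flower-only set and 76.2% of the root-only set, against 28.0% of all loci on in flower and 31.1% of all loci on in root. Annotated loci were 392 (34.8%) of the flower-only and 169 (18.6%) of the root-only loci. Intergenic loci without a strand were 295 (26.2%) and 386 (42.4%). The organ-only loci were also short, with median spans of 1460 nt in flower and 825 nt in root, where all loci on in these organs had medians of 4881 and 4585 nt. Loci under 400 nt numbered 195 in the flower-only and 268 in the root-only set. Most organ-only loci held a single transcript: 826 (73.4%) in flower and 756 (83.0%) in root. A short or low locus reaches off more easily because fewer fragments fall on it, and its part in these shares was not tested. Without loci under 400 nt, 931 flower-only and 643 root-only loci remained.

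**Figure D3:**
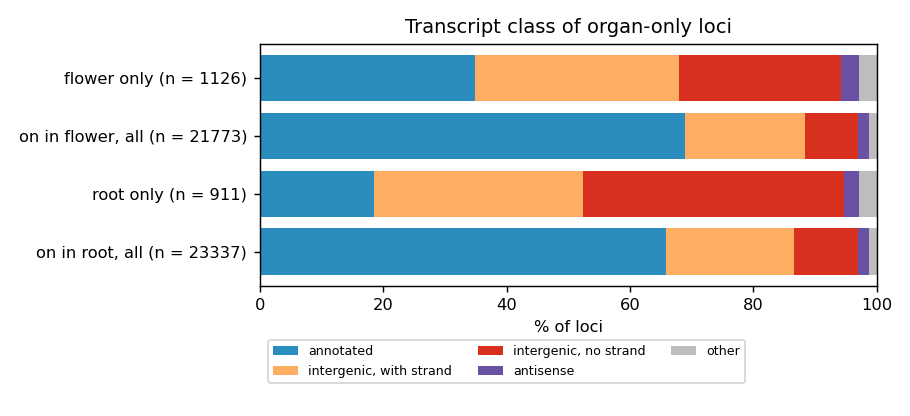
Percentage of loci in each transcript class, for flower-only and root-only loci and for all loci on in the same organ. The annotated part falls from 68.9% of all loci on in flower to 34.8% of the flower-only loci, and from 65.8% to 18.6% for root.

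Leaf seldom shared these loci in full. Of the flower-only loci, 108 (9.59%) were also on in all 3 leaf libraries, 385 (34.2%) were off in all 3, and 633 lay between. Of the root-only loci, 29 (3.18%) were on in leaf, 425 (46.7%) off and 457 between. Over all loci on in flower, 77.4% were on and 3.04% off in leaf, and over all loci on in root, 76.3% and 3.63%. The leaf libraries differed among themselves here. At an FPKM of at least 1, leaf 1 showed 65 root-only loci, the unnumbered leaf library 67 and leaf 41 220. Flower-only loci at that level numbered 262, 251 and 164 in the same order. Organ-only loci sometimes carried adjacent numbers. A neighbour by number in the same set was found for 125 flower-only and 96 root-only loci. For 36 and 41 of them the gap was at most 5000 nt. Over all loci on in flower and in root, 14896 and 16467 had such a neighbour, 3379 and 3612 within that gap. These sets hold 21773 and 23337 loci, and a larger set gives more neighbours by its size alone. Scaffold names were not used, so neighbours by number need not share a scaffold. Whether such neighbours are pieces of 1 gene was not tested.

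The organs also differed in which transcript of a locus was most abundant. Loci can yield several transcripts through other start sites, splicing or ends, and the assembler estimates a level for each. Among 11054 loci with several transcripts that reached 1 FPKM in each of the 6 libraries, the same transcript led in every library at 6194 (56.0%). At 471 loci (4.26%) 1 transcript led in all 3 root libraries and another in all 3 flower libraries. At the other 4389 the leader varied between libraries of the same organ, in flower at 3007 loci and in root at 2795, so the leader was often unsettled among replicates. The scaling of libraries cannot change a leader, because it multiplies all transcripts of a library alike. Requiring each leader to exceed the other by 1.5 times in every library left 141 loci. Without flower 2 the count was 839 and without root 13 it was 717, since fewer libraries had to agree.

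A locus can also join neighbouring genes, so the positions of the leaders were compared. The leading transcripts overlapped at 431 of the 471 loci and did not at 40. At 165 loci (35.0%) the locus held 2 or more reference transcripts, against 28.4% of all loci compared. Both leaders were reference transcripts at only 7 loci, and at all 7 they did not overlap. A change from a reference transcript in root to another form in flower was seen at 153 loci, the reverse at 82, and neither leader was a reference transcript at 229. The summed level of the locus was not called different at 271 of the 471 (57.5%), close to the 56.2% of all loci compared. It was higher in flower at 115 and lower at 85.

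At the overlapping loci, the form that led in flower usually covered more of the genome. It was the longer one at 271 loci and the shorter one at 117, with equal spans at 43, and the median spans were 7731 nt for the flower leader and 5557 nt for the root leader. Among the loci with at most 1 reference transcript the counts were 157 and 87, and with a 1.5-fold lead 80 and 36. Without each library in turn, the flower leader was the longer at 64.3% to 71.0% of loci with unequal spans. The start sites lay over 100 nt apart and the ends within 100 nt at 110 loci. The ends lay over 100 nt apart and the starts within 100 nt at 93, both differed at 122 and neither at 106.

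A related measure over all 11054 loci, those with another leader included, showed a small difference. The mean span of a locus's transcripts, weighted by FPKM and given as a percentage of the span of the locus, was 82.11%, 82.07% and 81.88% in root 13, 23 and 33. It was 83.27%, 83.17% and 83.09% in flower 1, 2 and 45. The organs did not overlap, and flower exceeded root by 1.15 percentage points (two-sided exact permutation p = 0.1, the smallest that 3 libraries against 3 allow). Leaf was at 83.30%, 83.45% and 82.88%. A property of the libraries separated the organs in the same way: the length correction fitted to the steps between low values was 191, 191 and 192 nt in root 13, 23 and 33 and 207, 201 and 201 nt in flower 1, 2 and 45, with 199 to 201 nt in leaf. Its part in the longer flower forms was not tested. The share of the reference transcript, at the 6560 loci with exactly 1, did not separate the organs: it was 29.2% ± 0.256 in root and 29.1% ± 0.310 in flower (SD, n = 3; two-sided exact permutation p = 0.5). These measures were chosen after the leading transcripts were seen.

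MSTRG.32463 (positions 119289 to 124765, plus strand) had the largest shift among loci with overlapping leaders. Its transcripts share the start and differ by 693 nt at the end. The longer form, MSTRG.32463.1, held 99.03%, 99.28% and 99.39% of the locus in root 13, 23 and 33. In flower 1, 2 and 45 it held 5.73%, 0.00877% and 10.7%. The rest was CSA012082.1, the reference form, at 94.3%, 99.99% and 89.3% in flower. In FPKM, the reference form stood at 0.0701 to 0.0889 in root and at 18.6 to 71.7 in flower, and the longer form at 7.19 to 12.2 in root and 0.00163 to 8.58 in flower. All 3 leaf libraries followed flower, with 94.2% to 99.98% in the reference form. The transcripts of this locus, chosen for its shift, changed unequally, with a limma diffSplice adjusted p of 0.00034. The locus as a whole stood at 10.54 ± 2.84 FPKM in root and 54.3 ± 31.9 in flower (SD, n = 3; difference 2.06 ± 0.54 SE, limma adjusted p = 0.0147), a call that was lost without root 13, flower 1 or flower 45.

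MSTRG.53777 (positions 3721 to 12389, plus strand) changed its form, while its summed level was not called different. The whole locus stood at 29.2 ± 7.92 FPKM in root and 33.7 ± 10.98 in flower (SD, n = 3), a difference of 0.19 ± 0.31 (SE) with a limma adjusted p of 0.627. CSA021274.1, a reference transcript of 1152 nt at the start of the locus, held 83.5%, 83.2% and 82.1% in root 13, 23 and 33. In flower 1, 2 and 45 it held 0.961%, 3.74% and 5.06%. There, MSTRG.53777.2, which spans 8656 nt and reaches over the second reference model CSA021276.1, held 99.04%, 96.3% and 94.9%. The organs did not overlap for either transcript (diffSplice adjusted p = 3.1e-06, limma), which follows from choosing the locus for its shift. Leaf 1 and the unnumbered leaf library were like flower, with 99.9996% and 97.1% in the long form, and leaf 41 had 29.3%.

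The loci with 2 reference leaders were joined neighbours. At MSTRG.37811 (positions 52866 to 79199, minus strand), CSA005175.1 (52866 to 58725) held 85.2%, 87.8% and 82.2% in root 13, 23 and 33 and at most 1.58e-08% in each flower library. CSA005176.1 (72606 to 79127) held 63.4%, 63.2% and 57.0% in flower 1, 2 and 45 and at most 0.000126% in root. A transcript running over both, MSTRG.37811.1, took 12.2% to 17.8% in root and 36.6% to 43.0% in flower, so the split between them rests partly on how reads of the shared parts were assigned. The whole locus rose from 37.0 ± 7.58 FPKM in root to 384.7 ± 160.0 in flower (SD, n = 3; difference 3.28 ± 0.34 SE, limma adjusted p = 0.00029).

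At MSTRG.11113 (positions 168945 to 189194, plus strand), both leading models were present in both organs. CSA019570.1 (183694 to 188914) stood at 32.9, 49.5 and 42.1 FPKM in root 13, 23 and 33 and at 59.8, 57.4 and 52.7 FPKM in flower 1, 2 and 45. CSA019568.1 (168945 to 175085) stood at 6.09, 5.60 and 7.57 FPKM in root and at 88.2, 69.9 and 66.3 FPKM in flower. Both were higher in every flower library than in any root library, the second by far more, which moved it from 13.03% ± 2.96 to 52.5% ± 2.33 of the locus (SD, n = 3; diffSplice adjusted p = 1.8e-05, limma).

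**Figure D4:**
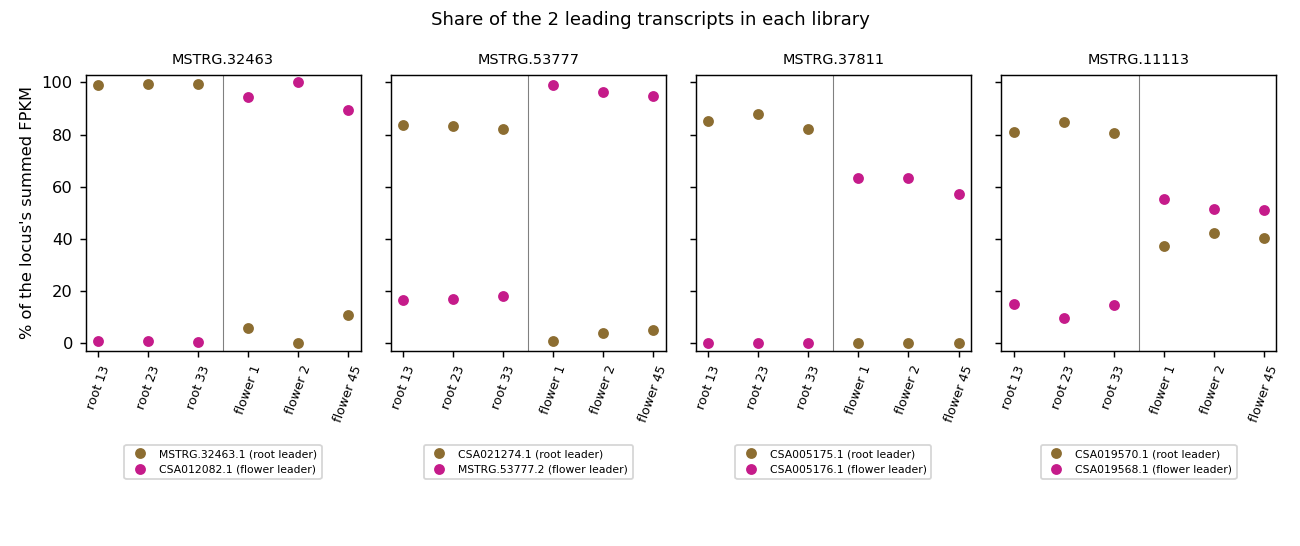
Share of a locus's summed FPKM held by the transcript that led in root (brown) and by the one that led in flower (pink), with a point for each of the 6 libraries. At MSTRG.32463 and MSTRG.53777 the leaders overlap in position, and at MSTRG.37811 and MSTRG.11113 they are separate reference models joined in 1 locus.

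Unequal changes of transcripts went beyond the exchanged leaders. At 7914 loci with at least 2 transcripts that passed the filter, limma's diffSplice tested whether transcripts of a locus differed between the organs by unequal amounts. It called 2070 loci (26.2%) at an adjusted p under 0.05. Of these, 787 kept the same leader in all 6 libraries, and 1035 had a summed level that was not called. Among all 11054 loci compared for leaders, 6194 (56.0%) kept the same leader and 56.2% had a summed level not called. Neither count is thus raised among the 2070. Of the 471 loci with another leader, 457 were tested and 323 (70.7%) called; since leaders were chosen on the same values, this count describes them and does not support them. DiffSplice lets the transcripts of a locus share 1 spread and, on simulated data, made more false calls than its threshold allows. A test of each transcript against the rest of its locus, with a spread of its own and chosen after those simulations were seen, called 1803 loci (22.8%), 1555 of them shared. For the named loci MSTRG.32463, MSTRG.53777, MSTRG.37811 and MSTRG.11113 its adjusted p was 0.0011, 0.0011, 0.00046 and 0.0047 (limma). These loci were chosen for their shifts in the same libraries. Their p-values here and from diffSplice above thus describe the choice and do not support it. Without root 33 diffSplice called 1286 loci and without root 23 it called 1342, fewer by more than 1.5 times in each case.

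Where an antisense locus and the annotated locus paired with it were both called, they usually differed in the same direction. Antisense transcripts are copied from the opposite strand of a gene and are known in plants to act on it in some cases. An antisense locus was paired with an annotated locus of a nearby number whose positions overlap its own on the other strand. Scaffold names were not used, so a shared scaffold was not checked. This gave 1147 pairs, 490 of them with both members tested. In 184 pairs (37.6%) both were called in the same direction, 99 higher in flower and 85 lower. In 19 pairs (3.88%) they were called in opposite directions, and in 129 neither was called. Over all loci tested, 25.4% were called higher in flower and 26.3% lower, so some pairs share a direction without any link. How many would do so was not tested. An annotated locus overlapped by several antisense loci entered a pair with each of them. No source used here says whether fragments were assigned by strand, so those of a gene and of its antisense partner may have been mixed, and the part of this in the shared direction was not tested.

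The pair that moved apart furthest with the antisense locus higher in flower was MSTRG.28195 and MSTRG.28194. The annotated MSTRG.28194 (CSA001563.1, positions 250045 to 251076, plus strand) stood at 437.7, 609.1 and 361.8 FPKM in root 13, 23 and 33 and at 38.4, 35.2 and 42.1 in flower 1, 2 and 45. MSTRG.28195 (positions 251071 to 258593, minus strand) overlaps it by 6 nt and stood at 1.05, 0.895 and 0.730 FPKM in root and at 19.4, 41.8 and 12.8 in flower. Neither overlapped between the organs. Their differences were -3.54 ± 0.25 and 3.60 ± 0.43 (SE; limma adjusted p = 6.6e-05 and 0.0005). The pair was chosen for large calls in opposite directions in these same libraries. Its separation and p-values thus describe the choice and do not support it. The antisense locus was listed at 0 in all 3 leaf libraries.

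In the other direction, the antisense MSTRG.46466 (positions 9440 to 18499, plus strand, 10 transcripts) stood at 37.8, 42.1 and 20.1 FPKM in root 13, 23 and 33 and at 2.33, 1.85 and 1.72 in flower 1, 2 and 45. These levels sum intergenic and antisense transcripts of the locus, and how the difference is shared between these kinds was not tested. MSTRG.46466 overlaps MSTRG.46467 (CSA032180.1, positions 18029 to 19218, minus strand) by 471 nt. That locus stood at 2.504, 0.532 and 1.22 FPKM in root and at 46.0, 18.1 and 43.1 in flower. Root and flower did not overlap at either locus, and the differences were -3.47 ± 0.32 for the antisense locus and 3.90 ± 0.46 for the annotated one (SE; limma adjusted p = 0.00019 and 0.00048). This pair was chosen in the same way, so its separation and p-values do not support it either. Leaf was low at both loci, at no more than 1.26 and 1.80 FPKM.

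**Figure D5:**
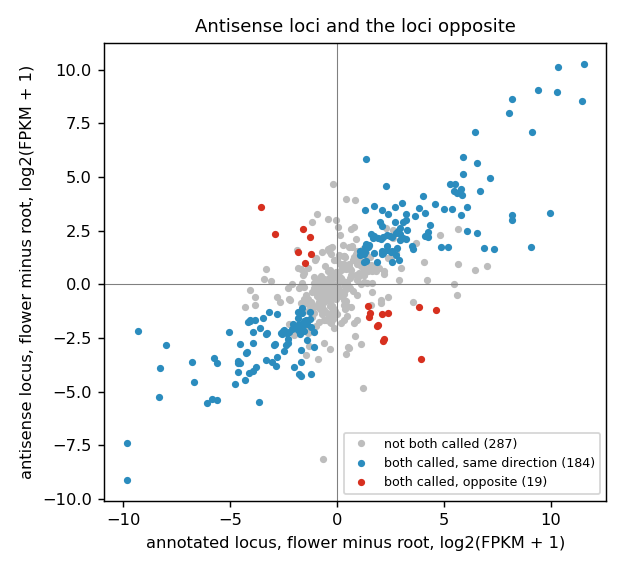
Difference of flower minus root on the log2(FPKM + 1) scale for 490 antisense loci (vertical axis) and the annotated locus opposite each (horizontal axis), coloured by whether both were called. The 184 pairs with both members called in the same direction lie at the lower left and upper right, the 19 with both called in opposite directions at the upper left and lower right, and the pairs not both called lie in all 4 quadrants.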

How the data were processed

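The authors deposited 1 table of FPKM values, with 109879 assembled transcripts in 61592 loci. Per the submitters' processing notes, HISAT2, StringTie and Cuffnorm were used; for versions, genome build, scaling and strand, none is given in the sources used. The FPKM of a locus's transcripts were summed. Columns were matched to titles, and no value column (0) was left unused. Loci with FPKM of at least 1 in 3 of 6 libraries were tested on log2(FPKM + 1) with a variance trend in limma (3.58.1, under R 4.3.3), on the 6 libraries alone (4 residual degrees of freedom), with Benjamini-Hochberg adjustment over all loci. FPKM are not counts, so no count test was run. Scripts were first tested on simulated data. In unstranded loci of 600 to 3000 nt with 1 transcript, 100% of values of 1.5 to 10 fragments came within 0.05 of whole numbers, which gave the depth. At 1000 nt, 3 fragments are 0.168 to 0.215 FPKM in these libraries; such limits cover counting error only. Named loci are the 2 highest organ-only loci spanning at least 400 nt per organ, the largest shifts of leading transcripts with a mean of at least 10 FPKM in both organs (2 with overlapping leaders, 2 with reference leaders), and the antisense pair furthest apart in each direction. The comparison, rules and measures were chosen with earlier results of these data known. No sequence is printed, since none was in the files used here.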

Additional observations from a re-analysis of the deposited data

Results flagged for a closer look

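Leaf libraries took no part in the comparison, yet they held signal at loci on in a single one of the compared organs. Leaf 41 had an FPKM of at least 1 at 220 of the 911 root-only loci, where leaf 1 had 65 and the unnumbered leaf library 67. Leaf 1 had an FPKM of at least 1 at 262 of the 1126 flower-only loci, the unnumbered leaf library had 251 and leaf 41 had 164.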

How the results depend on the processing

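Of 100 counts recomputed under the alternatives, 76 stayed within 1.5 times the reported one. Settings that test fewer loci or shrink or widen low values move the counts by construction. The 16055 calls became 10010 with a pseudocount of 5, 10623 with a filter of FPKM 5 and 6022 with reference transcripts alone, and were 14368 to 16697 with a library left out. The 4069 calls of 8-fold became 8148 with a pseudocount of 0.1, 1806 with 5 and 1705 with reference transcripts alone (3875 to 4291 with a library left out). The median difference was -0.16 with equal sums, -0.23 with upper-quartile scaling, -0.12 with quantile normalization, -0.11 and -0.031 with pseudocounts of 0.1 and 5, 0.039 without a filter, -0.0012 with a filter of FPKM 5 and -0.011 with reference transcripts alone (-0.079 to -0.052 with a library left out). Flower-only loci numbered 730 when off meant listed at 0, 2279 when it meant under 0.5 FPKM, 382 with on at 5 FPKM and 318 with reference transcripts alone (1245 to 2069). Root-only loci numbered 1957 with off under 0.5 FPKM, 239 with on at 5 FPKM and 174 with reference transcripts alone (1088 to 1283). Loci with another leader numbered 286 at FPKM 5, 306 with at most 1 reference transcript and 141 with a 1.5-fold lead (618 to 839). Loci with unequal transcript changes numbered 1348 with at most 1 reference transcript (1286 to 2191). Antisense pairs moving apart were 7 with a pseudocount of 5 and 7 with a filter of FPKM 5 (13 to 22). For 12 named loci, 204 of 211 differences kept direction and side of the threshold. MSTRG.32463 lost its call without root 13, flower 1 or flower 45 (adjusted p = 0.0509 to 0.0561, limma). MSTRG.53777, not called, turned to -0.018 with upper-quartile scaling, -0.028 with quantile normalization, -0.050 without flower 1 (up to 0.399 without another library) and -3.68 with reference transcripts alone, which drops its long form. No paired analysis was possible because the root and flower titles share no replicate number.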
